A study of Mus musculus with 6 samples.

Results

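A set of 5 genes that govern how the neonatal ventricle takes up fatty acids, packs them into droplets and releases them again were followed in miR-125b-1 knockout mice. They are Angptl4 and Cd36, which act on uptake, Plin5 and Cidea, which sit on the lipid droplet, and Pnpla2, which opens the droplet's triglyceride. All 5 genes were found, on 6 of the 271 probe sets of the table, which name 215 genes. The wild-type mice carried aMHC-Cre; 125b1+/+ and the knockout mice aMHC-Cre; 125b1f/f, so that Cre under the α-myosin heavy chain promoter was present in both groups. Ventricles were taken at postnatal day 1, and 3 Affymetrix mouse genome arrays were measured in each group. The promoter restricts the deletion to cardiomyocytes, so the other cells of the ventricle keep the locus. The paper describes 3 independent experiments, and nothing states whether an array holds 1 pup or several, so the SDs given here measure the spread between arrays.

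The genes were selected on the same knockout against wild-type difference that is described here, and so was the whole table, in which no difference was smaller than 1.00 on the log2 scale. Their differences are therefore given as a description with no test, and probe sets that did not differ are not analysed here. The intensities are linear, from 30.1 to 18292 over the table, and levels of different probe sets cannot be set against each other. The median of the table was 0.54 higher on the log2 scale in the knockout arrays, and since no unchanged probe sets are at hand the zero of the differences could not be checked.

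The mature heart draws most of its energy from fatty acids. Lipoprotein lipase frees them from circulating triglyceride at the vessel wall, CD36 carries them across the membrane, and what is not oxidised at once is esterified and kept in droplets coated with perilipins. Adipose triglyceride lipase, the product of Pnpla2, starts the breakdown of that store, and the fatty acids it frees can be oxidised or can bind the nuclear receptors of the PPAR family, which regulate many genes of these steps. The deleted locus, Mir125b-1, lies on chr9:41581926-41582002 (GRCm38.p6, plus strand) within the noncoding host gene Mir100hg. Its RefSeq hairpin is shown because it is what the knockout lacks, with the mature miR-125b-5p in capitals, followed by the mature form with its seed, bases 2 to 8, in capitals.
Mir125b-1 hairpin: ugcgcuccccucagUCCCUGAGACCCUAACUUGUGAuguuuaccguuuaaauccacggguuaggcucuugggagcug
mmu-miR-125b-5p: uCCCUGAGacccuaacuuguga
The second locus, Mir125b-2 on chr16:77646279-77646300, holds the same mature sequence and was left intact in both groups. Neither RNA is measured in the table, so the genotype could not be checked on these arrays.

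In the knockout ventricles the RNA of Angptl4, Plin5, Cidea and Cd36 was lower and that of Pnpla2 was higher. Angptl4 was 12.5-fold lower, Plin5 3.42 and 3.27-fold lower on its 2 probe sets, Cidea 3.38-fold lower and Cd36 2.09-fold lower, while Pnpla2 was 2.78-fold higher. The 3 knockout arrays did not overlap the 3 wild-type arrays in any of the 6 probe sets, 5 of them lower and 1 higher. Without overlap, 32.5% of all probe sets analysed were lower and 67.5% were higher, so the arrays were apart in every probe set, which the selection fixes. In whole ventricle, fewer cells of a type and less RNA per cell cannot be told apart.

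**Figure D1:**
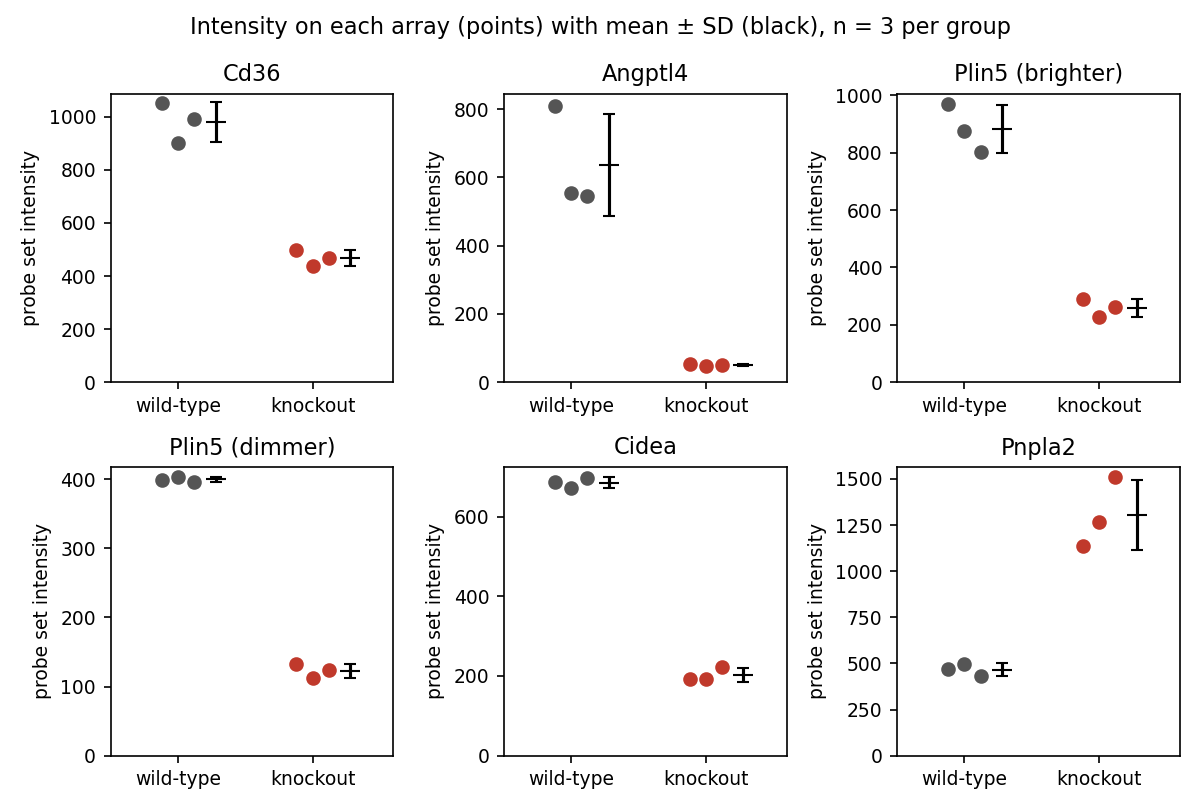
Probe set intensity (linear y axis from 0, arbitrary units) on each wild-type array (grey points) and knockout array (red points) for the 6 probe sets, with the group mean and SD over 3 arrays in black. The groups are apart in every panel, most widely for Angptl4, whose knockout arrays lie between 48.2 and 52.3, and Pnpla2 alone is higher in the knockout.

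Angptl4 encodes a secreted protein that inactivates lipoprotein lipase and thereby limits the supply of fatty acids from the blood, so that it works against uptake. The gene lies on chr17:33774900-33781575 in GRCm38.p6. Its probe set read 808, 554 and 544 on the wild-type arrays and 52.3, 48.2 and 49.6 on the knockout arrays. Wild-type array 1 stood above the other wild-type arrays, and the knockout arrays were close together at a low level. The means were 635 ± 150 and 50.1 ± 2.09 (SD, n = 3 each), and the log2 difference was -3.64 with a standard error of 0.13 from limma. The knockout level was 8.01% of the wild-type one, and even the closest arrays of the groups were 10.4-fold apart. It was the third largest of the 88 falls, after 2 probe sets that carry no gene name here. Without wild-type array 1 the difference was -3.46. Only 10 of the 271 probe sets had a lower mean in the knockout, no detection calls are analysed here, and how much of the knockout reading is background was not tested. With 50 added to every intensity before the log, the difference was -2.75. Its name carries the suffix _s_at, given to probe sets that match several transcripts.

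Cd36 encodes the fatty acid translocase of the plasma membrane, which is found on cardiomyocytes and also on capillary endothelium and macrophages. Its probe set read 1051, 901 and 991 on the wild-type arrays and 499, 438 and 468 on the knockout arrays. The groups were 1.81-fold apart at their closest arrays, and the spread within each was small. The means were 981 ± 75.6 and 468 ± 30.6 (SD, n = 3 each), a log2 difference of -1.07 with a standard error of 0.11. This was the 80th of the 88 falls in size, close to the limit of 1.00 below which probe sets are not in the table. The gene spans chr5:17781690-17888959. The window from 250 bases before to 50 bases after a RefSeq start is shown for the genes that have one. Genes of these steps are known to respond to nuclear receptors, and whether such receptors had a part in the differences was not tested. Capitals mark AGGTCA, the core element of their sites, on either strand. The Cd36 window is chr5:17835847-17836146 (GRCm38.p6, minus strand). On this strand the span of the gene begins at 17888959, so the window belongs to a start inside the gene. The outermost start was not searched.
Cd36 promoter: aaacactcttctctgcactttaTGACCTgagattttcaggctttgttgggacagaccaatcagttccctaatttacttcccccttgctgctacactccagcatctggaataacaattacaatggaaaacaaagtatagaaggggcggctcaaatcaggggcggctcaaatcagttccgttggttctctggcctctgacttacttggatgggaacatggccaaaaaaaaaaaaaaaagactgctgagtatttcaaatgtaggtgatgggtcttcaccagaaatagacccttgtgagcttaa
It holds 1 such element, read on the minus strand of the window at positions -228 to -223 from the start, with positions counted without a zero. AGGTCA is present on either strand in 16.3% of the 32851 promoter windows of the same length in the RefSeq set, so a single copy is common.

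Plin5 encodes perilipin 5, a droplet coat protein of oxidative tissues that tethers droplets to mitochondria and holds back the lipase encoded by Pnpla2. It is the single gene of the 5 with more than 1 probe set in the table, and both were lower. The brighter probe set read 969, 877 and 801 on the wild-type arrays and 289, 225 and 261 on the knockout arrays. The log2 difference was -1.77 with a standard error of 0.12. The dimmer probe set read 399, 403 and 397 on the wild-type arrays and 132, 112 and 123 on the knockout arrays. Its log2 difference was -1.71 with a standard error of 0.11. The 2 probe sets thus differed by less than the standard error of either. The ratio of the brighter to the dimmer probe set ran from 2.02 to 2.43 over the wild-type arrays and from 2.01 to 2.18 over the knockout arrays, which overlap, so the choice of probe set made little difference to the fall. The brighter one ends in _s_at. In both probe sets knockout array 1 was the highest of its group and knockout array 2 the lowest. On the wild-type arrays the brighter probe set varied 1.21-fold and the dimmer one by 1.02-fold.

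Plin5 lies on chr17:56111597-56117606 and RefSeq gives it 2 start windows, chr17:56117499-56117798 and chr17:56117249-56117548 (GRCm38.p6, minus strand), which overlap at their ends.
Plin5 promoter, upstream start: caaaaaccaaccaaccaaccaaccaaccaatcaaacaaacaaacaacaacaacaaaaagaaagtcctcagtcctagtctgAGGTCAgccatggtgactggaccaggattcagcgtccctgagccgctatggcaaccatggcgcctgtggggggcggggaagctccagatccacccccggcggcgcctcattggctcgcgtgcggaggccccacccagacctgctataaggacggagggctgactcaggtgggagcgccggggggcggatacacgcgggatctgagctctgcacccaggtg
Plin5 promoter, downstream start: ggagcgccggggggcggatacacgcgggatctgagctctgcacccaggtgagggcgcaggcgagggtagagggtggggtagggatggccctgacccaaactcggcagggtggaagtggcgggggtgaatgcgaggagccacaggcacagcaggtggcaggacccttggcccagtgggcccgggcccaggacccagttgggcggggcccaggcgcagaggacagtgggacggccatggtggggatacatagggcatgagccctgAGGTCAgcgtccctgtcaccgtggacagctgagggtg
Each holds 1 AGGTCA on the plus strand of the window, at -170 to -165 in the upstream one and at 14 to 19 in the downstream one. The longer PPAR element, written as AGGNCA repeated after 1 base, was present in 0.381% of all windows and in none of the 4 windows of these genes. An absent match says only that these letters are not in the 300 bases searched.

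Cidea encodes a protein of the CIDE family, which moves lipid between touching droplets so that the larger one grows, and it is best known from brown fat. Its probe set read 687, 671 and 698 on the wild-type arrays and 193, 193 and 223 on the knockout arrays. The wild-type arrays were almost level, and knockout array 3 stood above the other knockout arrays. The means were 685 ± 13.5 and 203 ± 17.4 (SD, n = 3 each), and the log2 difference was -1.76 with a standard error of 0.11. Cidea and the brighter Plin5 probe set followed each other as the 15th and 14th of the 88 falls.

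Of 15 listed adipocyte markers Cidea was the single one in the table. None of the others is analysed here, and neither are any of the 15 endothelial or 15 macrophage markers listed, so whether the share of such cells moved with Cidea and Cd36 was not tested. Of 18 cardiomyocyte markers, Myh7, the β-myosin heavy chain, is in the table, which held it at 1650.05 ± 307 in the wild-type and 17588 ± 674 in the knockout ventricles (SD, n = 3 each). This was the largest rise of the table, and the paper counts βMHC among the stress markers upregulated in knockout neonatal hearts. Myh7 is therefore no measure of the share of cardiomyocytes, and no other listed marker of these cells is analysed here.

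Pnpla2 encodes adipose triglyceride lipase, which removes the first fatty acid from stored triglyceride. Its probe set read 471, 498 and 432 on the wild-type arrays and 1136, 1264 and 1511 on the knockout arrays. The lowest knockout array was 2.28-fold above the highest wild-type array. The means were 467 ± 33.3 and 1304 ± 190 (SD, n = 3 each), and the log2 difference was 1.47 with a standard error of 0.12. It was the 85th of 183 rises, near the median rise of 1.41. Pnpla2 and Plin5, the lipase and the coat protein that restrains it, therefore lay on opposite sides of zero. The probe set ends in _a_at, which marks probes shared by transcripts of 1 gene. The gene lies on chr7:141455188-141460743, and its start window is chr7:141454938-141455237 (GRCm38.p6, plus strand).
Pnpla2 promoter: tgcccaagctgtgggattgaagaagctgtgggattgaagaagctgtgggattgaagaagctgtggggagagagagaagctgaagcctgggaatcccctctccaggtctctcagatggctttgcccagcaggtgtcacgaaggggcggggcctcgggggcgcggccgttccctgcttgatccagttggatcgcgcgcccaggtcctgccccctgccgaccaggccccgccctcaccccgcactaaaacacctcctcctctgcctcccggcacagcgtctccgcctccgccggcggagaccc
The window holds no AGGTCA, and none of the 4 windows holds TGTTTAC, the core of FoxO sites, which is present on either strand in 3.65% of all windows. GGGCGG, the GC box, has 2 copies in each of the 4 windows, counting both strands, with 1 of them shared by the overlapping Plin5 windows, and is present in 35.7% of all windows. The windows of Pnpla2, of Plin5 and of Cd36 had a GC content of 65.3%, 60.3 and 69.3%, and 43.0%, against a median of 52.7% over the RefSeq set. No window of Angptl4 or Cidea is shown.

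**Figure D2:**
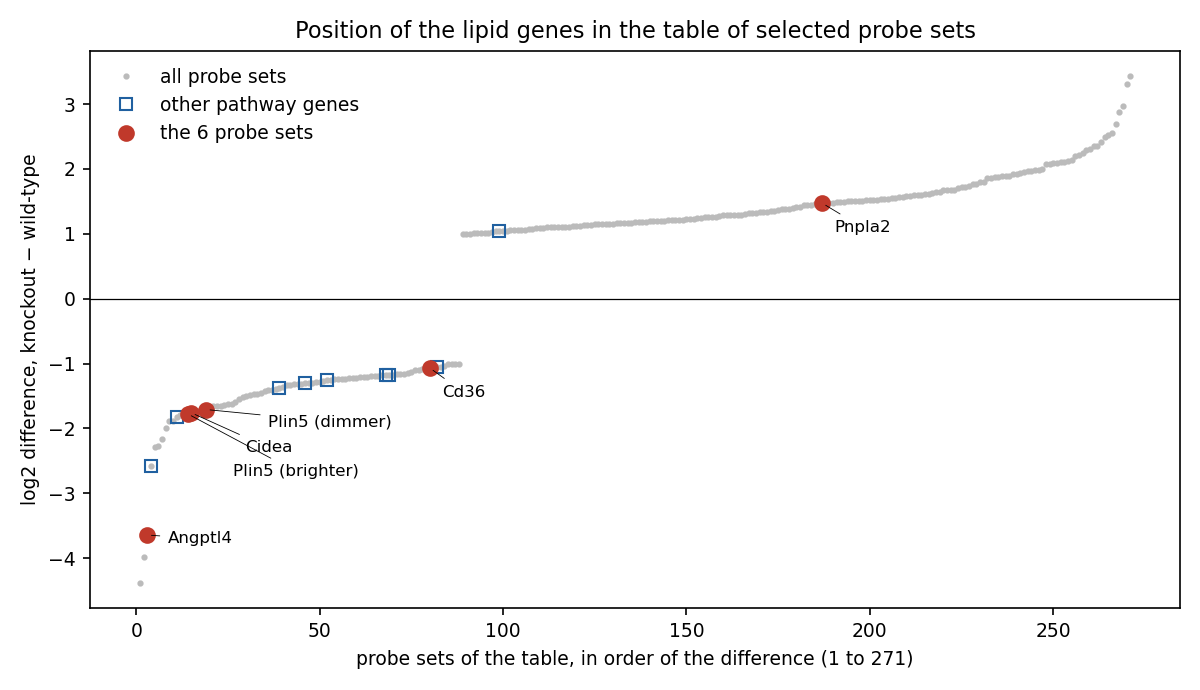
Log2 difference between knockout and wild-type (y axis) for the 271 probe sets in order of size (x axis), with the 6 probe sets of the lipid genes in red and those of other listed pathway genes as blue squares. No probe set lies nearer to zero than 1.00, Angptl4 is the third from the bottom, the Plin5 and Cidea points lie together near -1.7, and Cd36 is near the selection limit.

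The sizes of these differences depend on the scaling of the arrays, and their directions did not in the alternatives tried. Centring could not have reversed a direction, since its shift of 0.54 is less than the smallest difference of the table, 1.00. With each array centred on its median, the 4 lower genes were further down, with Cd36 at -1.61 in place of -1.07. Pnpla2 was at 0.93 in place of 1.47. Medians and quantiles were taken over the 271 selected probe sets alone, of which 183 were higher and 88 lower. Centring therefore moves every difference down by the same 0.54, by which the median of the knockout arrays was higher. Without unchanged probe sets it cannot be told which scaling is right. After quantile normalization Plin5 was at -2.41 on its brighter probe set, Cidea at -2.38 and Pnpla2 at 0.70, each more than 1.5-fold away from the value as deposited. Cd36, which had the smallest fall of the 4 lower genes as deposited, was at -1.64 after quantile normalization. The rise of Pnpla2 was under both alternatives below the limit of 1 that the table was selected with. The groups did not overlap for any of the 6 probe sets under either alternative, with 5 lower and 1 higher. As deposited they were apart in every probe set of the table, 32.5% lower and 67.5% higher. The share over all probe sets was not computed under the alternatives, so the count is no result about these genes.

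**Figure D3:**
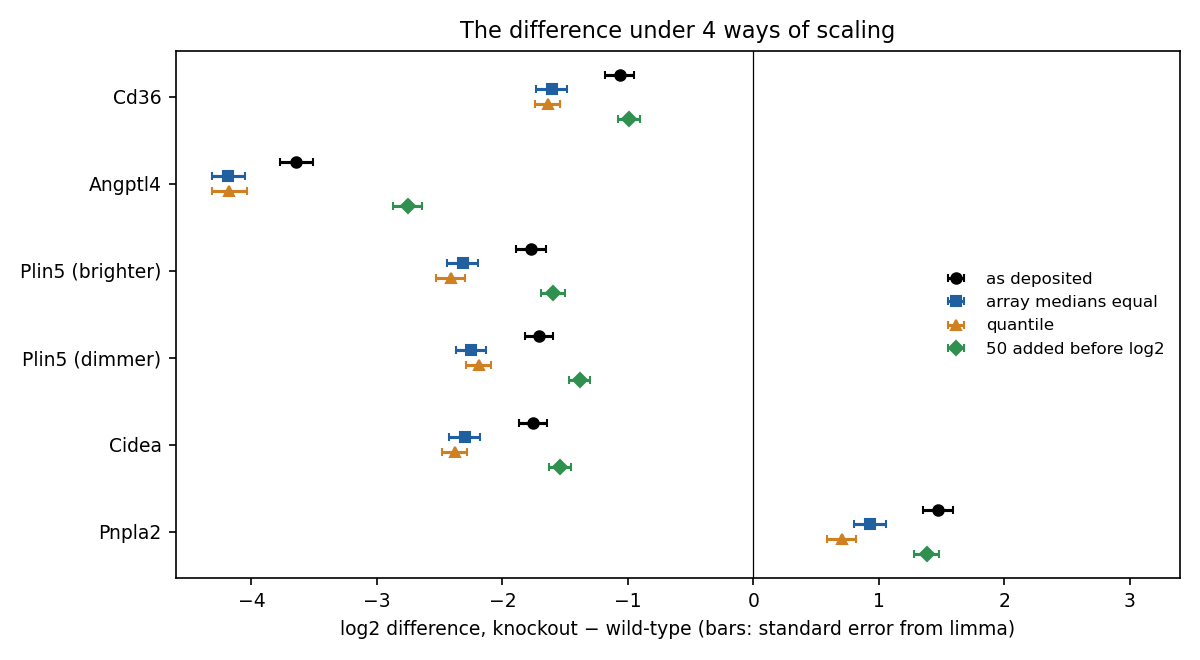
Log2 difference between knockout and wild-type (x axis) of the 6 probe sets (y axis) as deposited, with array medians made equal, after quantile normalization and with 50 added to each intensity before log2, with standard errors from limma as bars. All points stay on their side of zero, Pnpla2 moves toward it from 1.47 to 0.70, and Angptl4 moves to -2.75 with the added 50.

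The arrays of a group differed by unequal amounts from gene to gene. The SD of log2 intensity over the wild-type arrays was 0.32 for Angptl4, and only 3 of the 271 probe sets had a larger one. It was 0.03 for Cidea and 0.01 for the dimmer Plin5 probe set, the smallest of the table, against a median of 0.13. On the knockout arrays the order was another, with 0.06 for Angptl4, 0.09 for Cd36, 0.12 for Cidea and for the dimmer Plin5 probe set, 0.18 for the brighter one and 0.21 for Pnpla2, against a median of 0.12. Knockout array 3 was the highest of its group for Pnpla2 and Cidea, and knockout array 1 was the highest for Cd36, Angptl4 and both Plin5 probe sets. The medians of the table on the knockout arrays deviated from their mean by -0.06 to 0.04 on the log2 scale, against -0.19 to 0.22 for Pnpla2 and -0.19 to 0.17 for the brighter Plin5 probe set.

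**Figure D4:**
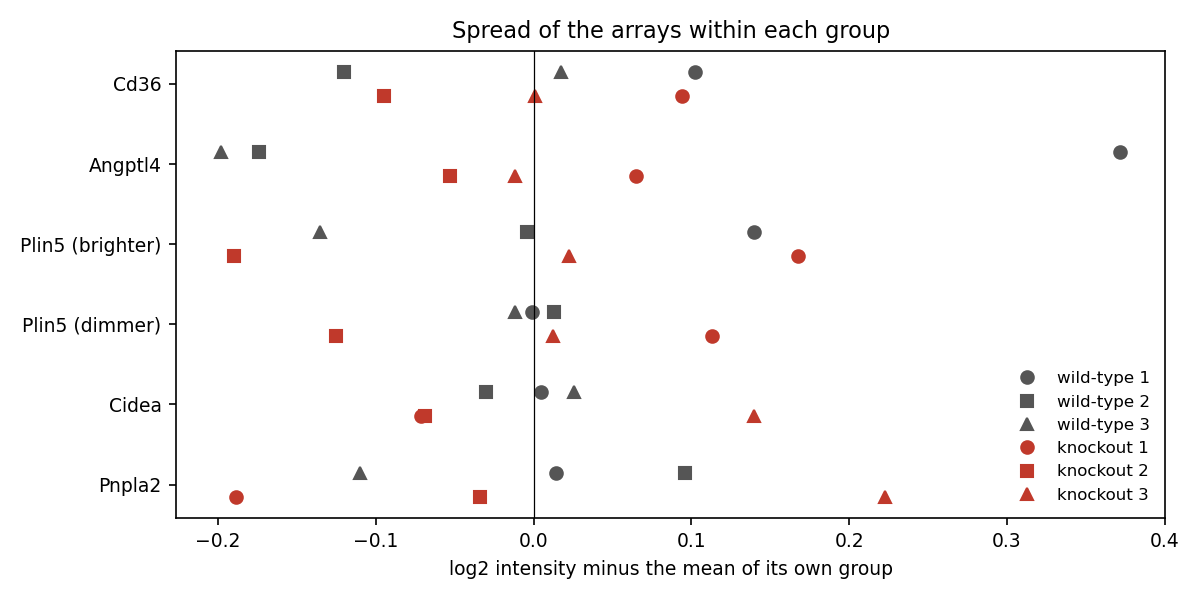
Log2 intensity of each array minus the mean of its own group (x axis) for the 6 probe sets (y axis), with wild-type arrays in grey and knockout arrays in red and the replicate number given by the symbol. Wild-type array 1 stands 0.37 above its group mean for Angptl4, while the wild-type arrays of Cidea and of the dimmer Plin5 probe set deviate by up to 0.03.

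Around the 5 genes, 126 other genes of lipoprotein lipolysis, uptake, droplets, triglyceride synthesis, droplet lipolysis, PPAR factors, mitochondrial oxidation and other PPAR-induced functions were listed, of which 8 are in the table. The knockout arrays were lower for 7 of them and higher for 1, against 72 lower and 143 higher among all 215 genes. The lists were drawn up with earlier results of these data known, so this count is no result about the pathway. The others are not analysed here, so the share of the pathway that moved is not known.

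At the droplet, Plin3, a perilipin found in most tissues that moves between cytosol and droplet, was the member that was higher. It read 416, 351 and 401 on the wild-type arrays and 876, 797 and 737 on the knockout arrays, which is 2.06-fold higher and close to the selection limit. Its log2 difference was 1.04 as deposited, 0.50 with array medians made equal and 0.34 after quantile normalization. Plin3 lies on chr17:56278962-56290511, in the same stretch of the chromosome as Plin5, 161 kb away with 9 RefSeq genes between, and the 2 perilipins differed in opposite directions. Plin4, which is next to Plin5, is not analysed here. Of the 18 genes listed for the droplet coat, 3 are in the table, with 2 lower and 1 higher. Over all 215 genes, 72 were lower and 143 higher. The 2 lower ones are Plin5 and Cidea, which were selected on this difference, so the count says nothing about the droplet coat.

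In triglyceride synthesis 1 of 15 listed genes is in the table, Agpat3, an acyltransferase that makes phosphatidic acid. It read 133, 126 and 133 on the wild-type arrays and 59.2, 61.6 and 69.2 on the knockout arrays, which is 2.07-fold lower, and the groups were 1.82-fold apart at their closest arrays. Of 14 genes of lipoprotein lipolysis, 18 of uptake and activation and 13 of droplet lipolysis, the table holds Angptl4, Cd36 and Pnpla2 alone. It holds none of 15 PPAR factors and coactivators. Downstream, 5 of 22 listed genes of mitochondrial oxidation are in the table, all lower. Their median log2 difference was -1.26 where the brightest probe set stands for a gene. Over all 215 genes, 72 were lower and 143 higher. The list was drawn up with earlier results of these data known, so this count is no result about mitochondrial oxidation. Hadhb and Acaa2, whose products carry out the thiolase step of β-oxidation, were both at -1.18. Slc25a20, which carries acylcarnitines into the mitochondrion, was at -1.26, and Cpt2, which turns them back into acyl-CoA there, was at -1.83. Decr1, a reductase needed to oxidise unsaturated fatty acids, was at -1.38 on its brighter probe set and at -2.58 on its dimmer one, so its probe sets disagree in size by more than those of Plin5. Hsdl2, listed among other PPAR-induced functions, was at -1.30. As deposited, Cd36 had a smaller difference than each of these 5 oxidation genes. On the brightest probe sets Plin5 and Cidea had a larger one than all but Cpt2, while the dimmer Decr1 probe set was beyond Plin5, Cidea and Cpt2. After quantile normalization this order changed, with Cd36 at -1.64 beyond Acaa2 at -1.48, and Plin5 at -2.41 and Cidea at -2.38 beyond Cpt2 at -2.33.

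Likeness of pattern was measured as the root mean square difference over the 6 arrays of log2 values set to the wild-type mean, among the brightest probe sets of the 210 other genes. It is led by the size of the group difference. Among the 5 genes Cidea and Plin5 were closest, at 0.148 for the brighter and 0.104 for the dimmer Plin5 probe set, while the 2 Plin5 probe sets were 0.096 apart. Outside them Reep1 was nearest both to Cidea, at 0.115, and to Plin5, at 0.138. Plbd1 came next for Cidea, at 0.119, and Sema3c for Plin5, at 0.144. The nearest to Cd36 were 5033430I15Rik at 0.0913 and Agpat3 at 0.105, and to Pnpla2 Dcxr at 0.0733 and Gas5 at 0.111. Angptl4 had no near neighbour among named genes, with Paqr9 at 1.08 and Mcm3 at 1.22.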

How the data were processed

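Ventricular RNA was measured on 6 arrays, 3 per group, grouped by their titles. For the 271 probe sets analysed here the values deposited by the authors are linear intensities. The background correction, summarization and normalization are not given in the sources used here, and the arrays' number limits the precision. Intensities were set to log2, and the difference, knockout minus wild-type, and its standard error were computed over the whole table with lmFit and eBayes of limma (version 3.58.1, R 4.3.3), with 28.1 prior degrees of freedom. The errors may be underestimated, since the table is a selection, and no p-value is given because the contrast chose the probe sets. The fit was tested on simulated data with known differences. The simulation gave all probe sets the same spread and included unchanged ones, so it does not check the errors of this selected table. Counts, sequences and figures were made with Python 3.11.15, pandas 2.3.3 and matplotlib 3.10.9. Probe sets were named from the platform annotation, updated by gene number in RefSeq (GRCm38.p6), and 253 carried 1 gene name. The brightest probe set stood for a gene. Sequences are those of RefSeq for GRCm38.p6.

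The members, the 12 gene lists and the motifs were chosen with earlier results of these data known. Named were the 5 genes, all listed genes of the table, and the 2 genes nearest in pattern to each of the 5. The alternatives were centring on the median, quantile normalization, an offset of 50, group medians, ratios of mean intensities, each array left out, the replicate number as a block, trended and robust eBayes, probe sets without shared probes, and the mean over a gene's probe sets.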

Additional observations from a re-analysis of the deposited data

How the results depend on the processing

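No difference of the 5 genes changed direction under any alternative. Apart from quantile normalization, the alternatives could not have reversed one, so this is no support for the directions. The groups did not overlap, and centring moves each difference by 0.54, less than the smallest difference of 1.00. With each array centred on its median, the log2 difference was -1.61 for Cd36, -4.18 for Angptl4, -2.32 and -2.25 for the brighter and dimmer probe set of Plin5, -2.30 for Cidea and 0.93 for Pnpla2. After quantile normalization these were -1.64, -4.18, -2.41, -2.19, -2.38 and 0.70. An offset of 50 gave -0.99 for Cd36, -2.75 for Angptl4, -1.60 and -1.38 for Plin5, -1.54 for Cidea and 1.38 for Pnpla2. With it the fall of Cd36 was just smaller than the limit of 1.00 that the table was selected with. Leaving out each array in turn gave -1.13 to -1.01 for Cd36, -3.74 to -3.46 for Angptl4, -1.86 to -1.68 and -1.76 to -1.65 for Plin5, -1.83 to -1.72 for Cidea and 1.36 to 1.57 for Pnpla2. Group medians, ratios of mean intensities and the trended and robust fit moved no value by more than the SD between arrays, pooled over both groups on the log2 scale. Group medians moved Angptl4 to -3.48 and Cidea to -1.83, which is more than the SD of the tighter group of either gene. Without probe sets whose names mark shared probes, 3 lower and 0 higher probe sets were left, since Angptl4, the brighter Plin5 probe set and Pnpla2 rest on such probes. The number of listed genes on each side did not change with the scaling or with the mean over a gene's probe sets.

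Same-numbered arrays of the groups did not deviate together over the probe sets (r of -0.02, 0.01 and 0.08). With 3 arrays per group and selected probe sets, this cannot tell whether the numbers pair the samples. Wild-type array 1 correlated best with knockout array 2, at 0.12. With the replicate block the differences are the same by construction, such as -3.64 for Angptl4, and the standard errors of the 6 probe sets were 0.08 to 0.13 in place of 0.11 to 0.13.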

Other observations

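The probe sets nearest to Angptl4 in pattern were 2 that carry no gene name here, at a root mean square difference of 0.293 and 0.576 on the log2 scale. The nearer one read 900, 505 and 637 on the wild-type arrays and 36.5, 44.9 and 45.3 on the knockout arrays, a log2 difference of -3.98. The other read 2816, 1617 and 1773 on the wild-type arrays and 73.4, 101 and 122 on the knockout arrays, a log2 difference of -4.37. In both, as in Angptl4, wild-type array 1 stood above the other wild-type arrays. They are the 2 falls larger than that of Angptl4, and their genes were not identified.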
